A study of Mus musculus with 34 samples.

Results

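The genes described here are 34 cell cycle and DNA replication genes, read on mouse liver arrays across 8 groups of mice that differ in the nuclear receptor gene Ppara and in treatment with fenofibrate, a lipid-lowering drug that activates the PPARα receptor. The members were taken by symbol: every gene probe whose name in the scanner files was one of the 34 counted, which gave 47 probes, out of 23222 named genes on the array. All 34 arrays came from male C57Bl/6J mice aged 14 weeks, 1 mouse per array, fed chow and killed at zeitgeber time (ZT) 14. Fenofibrate at 100 mg/kg/day, or the vehicle, 3% gum arabic in water, was given by gavage each day for 10 days. WT mice (wild type) numbered 4 on vehicle and 4 on fenofibrate, and LWT mice (liver WT, compared here with the liver knockout) numbered 4 and 5. LKO mice (Ppara liver knockout) numbered 4 and 5, and KO mice (Ppara knockout) numbered 3 and 5. The promoter that drives the liver deletion, the deleted part of the gene and how LWT mice relate to LKO mice by descent are not given in the sources used here.

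A dividing cell passes from G1 into S phase when D-type cyclins and cyclin E with their kinases release the E2F transcription factors, which switch on genes for nucleotide supply and for the MCM helicase that opens DNA at replication origins. Cyclin A, cyclin B and the kinase Cdk1 then carry it into mitosis, where PLK1, the Aurora kinases and the anaphase-promoting complex with its activator CDC20 separate the chromosomes. The adult liver is mostly quiescent, and activation of PPARα by fibrates and other peroxisome proliferators is known to enlarge the rodent liver and to raise hepatocyte proliferation. In a liver extract, fewer cells of a type and less RNA per cell cannot be told apart.

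Promoter sequence was at hand for 27 of the 34 genes, from RefSeq on GRCm38.p6, as the 250 bases before and 50 bases from each gene's start. Aurkb, Ccna2, Ccnd1, Ccne2, Foxm1, Kif20a and Mcm4 had no match there. Of 4 motifs searched on both strands, TTTGAA, the core of the cell cycle homology region (CHR), occurred in 13 of the 27 promoters (48.1%), against 18.1% of all 27025 promoters scanned. It lay in 9 of the 11 promoters of mitosis genes and in 1 of the 9 of replication genes. TTTNNCGC, a core of E2F sites, occurred in 6 of 27 (22.2%, against 5.27% of all promoters), 5 of them replication genes (Mcm3, Mcm5, Mcm6, Mcm7 and Tyms) and none a mitosis gene. CCAAT occurred in 22 of 27 (81.5%, against 37.9%), and an exact DR1 repeat, the direct repeat that PPARα with RXR binds, in 0 of 27 (against 0.0444%). The 5 promoters below belong to genes on which the results turn, and show both motif layouts: Rrm2 and Ccne1, lower with the drug in WT mice, Plk1 and Cdc20, higher with it in LWT mice, and Mcm5, a replication gene with E2F cores. Each runs 5′ to 3′ on the gene's strand, capitals mark the motif matches, and position 0 is the first base after the 250 upstream. Rrm2 (chr12:24708004-24708303, plus strand) has 1 match, CCAAT from -50 to -46.
Rrm2: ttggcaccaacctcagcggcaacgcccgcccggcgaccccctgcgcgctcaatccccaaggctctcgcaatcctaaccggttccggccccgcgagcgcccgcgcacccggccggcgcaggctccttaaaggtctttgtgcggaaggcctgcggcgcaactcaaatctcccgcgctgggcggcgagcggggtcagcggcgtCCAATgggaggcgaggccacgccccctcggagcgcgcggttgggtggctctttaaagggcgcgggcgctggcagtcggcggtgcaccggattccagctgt
In Ccne1 (chr7:38107441-38107740, minus strand) no match was found in the window.
Ccne1: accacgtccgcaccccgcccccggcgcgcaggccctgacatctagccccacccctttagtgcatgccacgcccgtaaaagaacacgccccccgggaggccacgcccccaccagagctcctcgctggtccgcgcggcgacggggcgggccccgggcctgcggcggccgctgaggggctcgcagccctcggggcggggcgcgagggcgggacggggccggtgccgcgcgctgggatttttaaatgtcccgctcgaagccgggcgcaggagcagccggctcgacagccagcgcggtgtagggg
Plk1 (chr7:122159185-122159484, plus strand) has CCAAT from -14 to -10 and TTTGAA from 30 to 35.
Plk1: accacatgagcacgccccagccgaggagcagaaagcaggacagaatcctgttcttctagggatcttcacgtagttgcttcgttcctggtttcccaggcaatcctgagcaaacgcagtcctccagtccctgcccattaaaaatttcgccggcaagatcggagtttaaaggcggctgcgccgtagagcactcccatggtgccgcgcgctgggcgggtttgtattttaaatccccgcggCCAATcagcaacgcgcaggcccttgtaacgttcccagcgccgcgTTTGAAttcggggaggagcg
Cdc20 (chr4:118437294-118437593, minus strand) has CCAAT from -53 to -49 and from -8 to -4, with TTTGAA between them from -18 to -13.
Cdc20: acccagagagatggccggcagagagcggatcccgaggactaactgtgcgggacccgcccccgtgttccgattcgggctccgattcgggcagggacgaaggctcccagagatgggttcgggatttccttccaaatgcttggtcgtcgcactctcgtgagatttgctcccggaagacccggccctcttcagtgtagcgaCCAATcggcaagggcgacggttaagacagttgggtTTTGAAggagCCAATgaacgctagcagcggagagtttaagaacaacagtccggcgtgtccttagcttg
Mcm5 (chr8:75109259-75109558, plus strand) has TTTNNCGC on both strands, overlapping from -153 to -142, and CCAAT from -77 to -73, -22 to -18 and 6 to 10.
Mcm5: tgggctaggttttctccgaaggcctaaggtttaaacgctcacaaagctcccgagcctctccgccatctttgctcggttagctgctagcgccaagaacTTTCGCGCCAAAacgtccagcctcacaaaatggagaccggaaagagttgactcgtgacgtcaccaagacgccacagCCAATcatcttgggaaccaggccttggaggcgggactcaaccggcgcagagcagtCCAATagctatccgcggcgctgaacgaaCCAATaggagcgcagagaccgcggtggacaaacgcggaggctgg
These matches describe letters in a window and were not tested as binding sites.

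Between 50.61% and 63.15% of gene probes per array were well above background by the scanner's flag, no spot was saturated, and replicates of a group correlated at 0.9783 to 0.9893 across probes. Levels below are log2 processed signal minus the array's 75th percentile of it, so a level of 0 equals that percentile and a difference of 1 is a doubling. A gene was tested if 1 of its probes exceeded background in all mice of some group. That held for 15712 genes and for 29 of the 34 members. A gene is called where limma's adjusted p, over all 15712 genes, was below 0.05. As a check of the labels, Ppara was lower in LKO than in LWT on vehicle by -0.91 ± 0.16 (log2, SE) and in KO than in WT by -1.68 ± 0.17. Of 8 check genes (Ppara itself, Cd36, Ehhadh, Acot2, Pdk4, Mogat1, Vnn1 and Plin2), 7 were called higher with the drug in WT and in LWT, and 0 in LKO and in KO. In LKO and KO the drug called only 0 and 2 of all 15712 genes. All 10 hepatocyte markers passed the filter. LWT vehicle replicate 1 had the highest level of its group in 25 of the 29 members, and KO vehicle replicate 2 in 21 of 29, so results that rest on either mouse are also given without it. At the other end, treated LWT replicate 4 and treated WT replicate 3 were each lowest of their group in 19 of 29, and KO vehicle replicate 1 in 18.

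Fenofibrate changed few of the members: Ccne1, Rrm2, Cenpa and Pcna were lower in WT mice, and in LWT mice Rrm2 was lower while Plk1 and Cdc20 were higher. In WT mice 4 of 29 were called, 0 higher and 4 lower, where 21.5% of all genes were called (10.2% higher and 11.4% lower). In LWT mice 3 of 29 were called, 2 higher and 1 lower, against 18.1% of all genes (10.2% higher and 7.87% lower). In LKO mice 0 of 29 passed limma's test (2 had an unadjusted p below 0.05), against 0% of all genes, and in KO mice 0 of 29 (1 unadjusted), against 0.0127%. The members' median change was 0.25 in WT, 0.22 in LWT, 0.00 in LKO and -0.10 in KO, where the medians of all genes tested were -0.003, 0.004, 0.022 and -0.007. The comparison with the most called members was that of treated LKO and treated LWT mice, where 18 of 29 members were called, 3 higher and 15 lower, against 36.7% of all genes (18.3% higher and 18.4% lower).

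**Figure D1:**
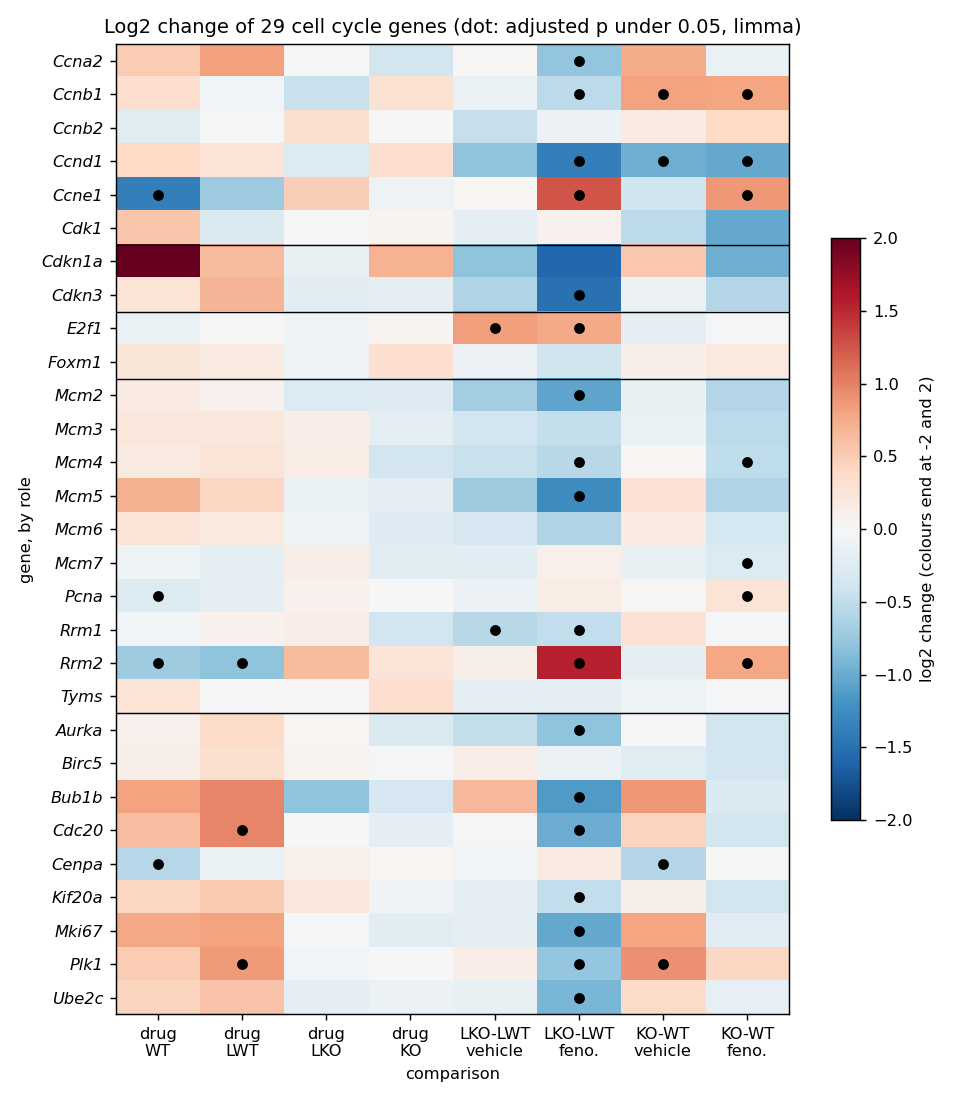
Heat map of the log2 change of the 29 tested members (rows, by role) in each comparison (columns). A dot marks an adjusted p below 0.05 by limma. The column for LKO minus LWT on fenofibrate holds 18 dots, and the columns for the drug in LKO and in KO hold none.

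In WT mice, the genes lowered by fenofibrate encode a cyclin of S-phase entry, a subunit for nucleotide supply, a replication clamp and a centromere histone. Rrm2 encodes the small subunit of ribonucleotide reductase, which makes the deoxynucleotides for DNA synthesis, and its probe lies at chr12:25398824-25398883 (mm9). The 4 WT mice on vehicle had Rrm2 levels of 1.93, 1.99, 1.94 and 1.87, and the 4 on fenofibrate 1.20, 1.22, 1.08 and 1.37. All treated mice lay below all untreated ones, and the change was -0.71 ± 0.19 (SE), or 1.64-fold lower (adjusted p = 0.00687, limma). Ccne1, cyclin E1, which with CDK2 starts S phase, has its probe at chr7:38882937-38882960 (mm9). Its levels in WT were 1.04, 0.87, 0.42 and 0.16 on vehicle and -0.87, -1.13, -0.28 and -0.69 on fenofibrate. The groups did not overlap, and Ccne1 was 2.58-fold lower with the drug (-1.37 ± 0.28, adjusted p = 0.00057). Cenpa, the histone H3 variant of centromeres, read 0.18, 0.05, -0.22 and -0.43 on vehicle and -0.71, -0.79, -0.67 and -0.51 on fenofibrate, a change of -0.57 ± 0.16 (adjusted p = 0.012) without overlap. Pcna, the clamp that holds DNA polymerase on its template, read 3.19, 3.35, 3.41 and 3.26 against 3.13, 2.99, 2.98 and 3.04. That fall was small (-0.27 ± 0.09, 1.20-fold, adjusted p = 0.0387), again without overlap. On slide 3, which held both groups, the differences were -0.65 for Rrm2 and -1.2 for Ccne1. Cenpa lost its call without WT vehicle replicate 1 (adjusted p = 0.058), and Pcna without any of 6 WT mice (the highest adjusted p, 0.112, without vehicle replicate 3). Of the other 25 members none passed the test. A change above 0 was found in 21 of the 29, where the median of all genes was -0.003. Members varied together across mice (median correlation 0.36), so these are not 21 separate observations.

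In LWT mice, Rrm2 was again lower with the drug while 2 mitotic regulators were higher. Rrm2 read 1.70, 1.47, 1.71 and 1.64 on vehicle and 0.80, 0.72, 0.78, 0.83 and 1.00 on fenofibrate, a change of -0.80 ± 0.18 (adjusted p = 0.00192), or 1.74-fold, without overlap. Plk1, the kinase that drives entry into and passage through mitosis, read -1.95, -2.13, -2.40 and -2.24 on vehicle and -1.16, -1.83, -0.79, -1.87 and -1.04 on fenofibrate. Every treated LWT mouse was above every untreated one, and the change was 0.85 ± 0.21 (adjusted p = 0.00471). Cdc20, the activator of the anaphase-promoting complex, read -1.04, -2.0, -2.26 and -2.66 on vehicle and -1.02, -1.50, -0.54, -1.64 and -0.40 on fenofibrate. Replicate 1 on vehicle lay inside the treated range, and the change was 0.97 ± 0.32 (adjusted p = 0.0354), a call lost without any of 6 LWT mice (the highest adjusted p, 0.154, without vehicle replicate 4). Within slides 2 and 3 the differences were 0.98 and 0.54 for Plk1, 0.27 and 0.62 for Cdc20, and -0.91 and -0.88 for Rrm2. Just outside the threshold were Ccna2, cyclin A2, at 0.82 (adjusted p = 0.0506), Ccne1 at -0.72 ± 0.26 (adjusted p = 0.0552) and the cytokinesis kinesin Kif20a at 0.53 (adjusted p = 0.0592). The balance of directions turned on the fit: with slide as a block, 1 member was called higher (Plk1) and 3 lower, Rrm2, Ccne1 (-0.81 ± 0.26, adjusted p = 0.0313) and Pcna (-0.27 ± 0.09, adjusted p = 0.039).

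The LWT vehicle mouse that stood highest in most members bears on that count. It was picked because it was highest of its group in 25 of the 29 members. Leaving it out lowers the vehicle mean of those members, so higher drug effects follow by construction. Without that mouse, 10 of the 29 members were called for the drug in LWT, 9 higher and 1 lower, where 16% of all genes were called. By log2 change, the 9 were Cdc20 at 1.29 (adjusted p = 0.00647), Cdkn3 at 1.21 (adjusted p = 0.0205), Ccna2 at 1.07 (adjusted p = 0.0135), Mcm5 at 0.99 (adjusted p = 0.0311), Plk1 at 0.92 (adjusted p = 0.00576), Ube2c, a ubiquitin-conjugating enzyme of the anaphase-promoting complex, at 0.84 (adjusted p = 0.0368), Kif20a at 0.69 (adjusted p = 0.018), Mcm3 at 0.59 (adjusted p = 0.0476) and Mcm4 at 0.55 (adjusted p = 0.0289). Rrm2 stayed lower (-0.78, adjusted p = 0.00715). In Mcm5, a subunit of the replicative helicase, that mouse read 0.80 where its 3 group mates read -1.95, -1.37 and -1.26, and the 5 treated LWT mice read -0.87, -0.67, 0.12, -1.44 and 0.16. Cdkn3 passed the filter only through treated WT and treated LWT mice, and was below background in LWT vehicle replicate 4 (-5.06). Its change with the drug is thus not independent of the filter.

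**Figure D2:**
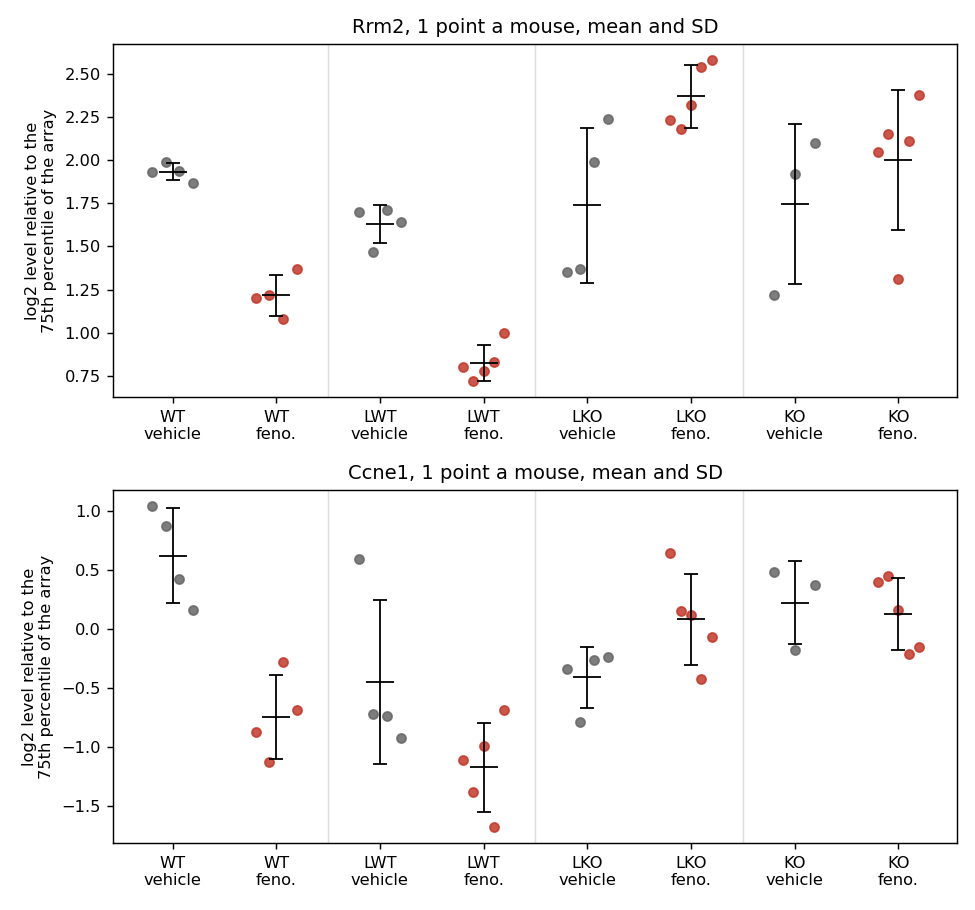
Levels of Rrm2 and Ccne1 in each of the 34 mice by group (log2 signal relative to the array's 75th percentile), with each group's mean and SD. Treated WT and LWT mice lie at 1.37 or below in Rrm2, and treated LKO mice at 2.18 or above.

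In the knockout lines neither gene passed the test for the drug. In LKO mice Rrm2 read 1.35, 1.37, 1.99 and 2.24 on vehicle and 2.23, 2.18, 2.32, 2.54 and 2.58 on fenofibrate (0.63 ± 0.18, adjusted p = 0.491). In KO mice it read 1.22, 1.92 and 2.10 on vehicle and 2.05, 2.15, 1.31, 2.11 and 2.38 on fenofibrate (0.25 ± 0.20, adjusted p = 0.648). Ccne1 in LKO mice read -0.34, -0.79, -0.26 and -0.24 against 0.64, 0.15, 0.12, -0.42 and -0.07 (0.49 ± 0.26, adjusted p = 0.888), and in KO mice 0.48, -0.18 and 0.37 against 0.40, 0.45, 0.16, -0.21 and -0.15 (-0.10 ± 0.29). The difference between drug effects was itself tested. For Rrm2 the effect in LWT minus that in LKO was -1.44 ± 0.25 (adjusted p = 0.000392) and that in WT minus that in KO -0.97 ± 0.27 (adjusted p = 0.0191). For Ccne1 the differences were -1.21 ± 0.37 (adjusted p = 0.0449) and -1.27 ± 0.40 (adjusted p = 0.0363). These were the 2 members of 29 called in each difference, both on the lower side. Of all genes, 6.84% were called for LWT against LKO (3.84% higher and 3% lower) and 11.1% for WT against KO (5.7% higher and 5.37% lower). The Ccne1 calls were less firm. That for LWT against LKO was lost in 14 of 34 fits that each left out 1 mouse (the highest adjusted p, 0.121, without LWT vehicle replicate 1), and that for WT against KO in 7 (0.109 without KO vehicle replicate 2). Rrm2 stayed called without those mice (-1.41, adjusted p = 0.00116, and -1.05, adjusted p = 0.0198), and in WT against KO lost its call without KO vehicle replicate 1 (adjusted p = 0.076). Without the 3 arrays of slide 1, neither gene was called in WT against KO (Rrm2 -0.69, adjusted p = 0.113, and Ccne1 -1.19, adjusted p = 0.0795). No member was called for WT against LWT (limma, 0 of 29, and 0 at an unadjusted p below 0.05), where 0% of all genes were.

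The mitosis members are described here by their mean in each mouse. Averaged over the 9 that were tested, the level was -1.79 ± 0.20 (SD, n = 4) in WT on vehicle and -1.43 ± 0.37 (n = 4) on fenofibrate. Among the 9, Bub1b passed the filter only through treated WT mice, so its part in this WT difference is not independent of the filter. In LWT the averages were -1.89 ± 0.38 (n = 4) and -1.30 ± 0.45 (n = 5), with the highest treated values in replicate 3 (-0.76) and replicate 5 (-0.97). In LKO they were -1.90 ± 0.11 (n = 4) and -1.97 ± 0.25 (n = 5), and in KO -1.49 ± 0.47 (n = 3) and -1.62 ± 0.26 (n = 5). Averaged over the 10 replication members, levels were 0.51 ± 0.11 and 0.58 ± 0.20 in WT, 0.58 ± 0.52 and 0.59 ± 0.29 in LWT, 0.23 ± 0.12 and 0.31 ± 0.07 in LKO, and 0.52 ± 0.23 and 0.39 ± 0.12 in KO. Of the markers of lymphocytes and neutrophils that were tested, 1 of 9 was called higher with the drug in WT and 1 of 9 in LWT, in both Nkg7 (0.62 ± 0.10, adjusted p = 5.54e-05, and 0.67 ± 0.10, adjusted p = 1.16e-05). Of 4 erythroid markers, 1 was called lower in each, Alas2. The summed level of the lymphocyte and neutrophil markers (linear, in units of the array's 75th percentile, 9 of 10 markers passing the filter, Cd8a not) ran from 13 to 14.4 in WT on vehicle and 15.6 to 17.5 on fenofibrate. In LWT it ran from 13.4 to 14.6 on vehicle and 14.7 to 23.1 on fenofibrate, highest in replicates 3 (23.14) and 5 (19.98). In LKO it ran from 12.9 to 15.5 and 12.5 to 13.8, and in KO from 13.5 to 28.7 and 12.7 to 34. The KO sum was high in vehicle replicates 1 (28.67) and 2 (25.99), and highest in treated replicate 3 (33.97). Of these, vehicle replicate 1 had the lowest mitosis mean of its group (-1.87) and vehicle replicate 2 the highest (-0.96). Treated replicate 3 was at the median of its group (-1.59). In WT, summed erythroid markers (the 4 that passed the filter) ran from 41.9 to 50.5 on vehicle and 24.6 to 30.4 on fenofibrate. In LWT they ran from 33.8 to 54.7 and 30.5 to 35.6. In LKO they ran from 53.7 to 63.4 and 47.6 to 67.8, and in KO from 45.6 to 76.4 and 55.6 to 80.9. The part of either marker list in the results was not tested.

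**Figure D3:**
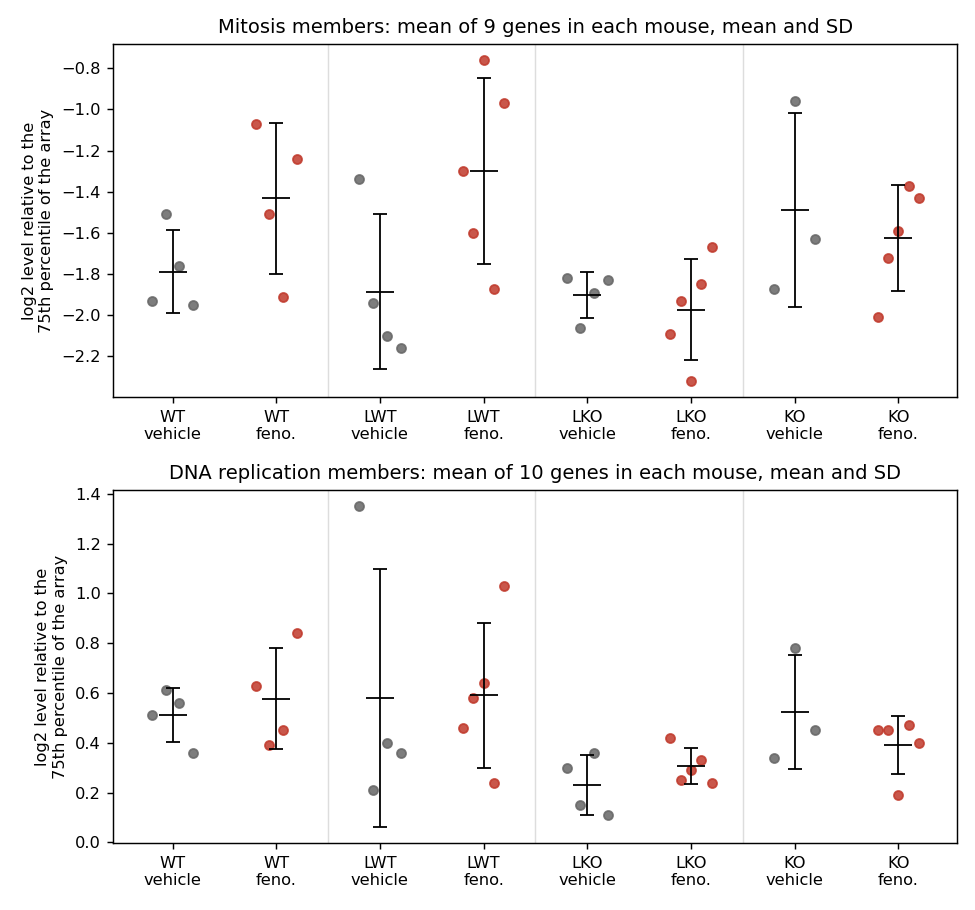
Mean level of the mitosis and replication members in each mouse by group (log2 signal relative to the array's 75th percentile), with the group mean and SD. Treated LWT replicates 3 and 5 stand highest among treated mice in the mitosis panel, at -0.76 and -0.97, and LWT vehicle replicate 1 stands apart from its group in the replication panel, at 1.35.

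On vehicle, loss of Ppara in the liver went with 2 called members of 29, where 6.21% of all genes were called (1.85% higher and 4.35% lower), and the members' median change was -0.18 (-0.008 over all genes). E2f1, a transcription factor that switches on S-phase genes, read -0.08, -0.68, -0.92 and -1.14 in LWT and 0.15, 0.15, 0.25 and -0.02 in LKO. Every LKO mouse lay above every LWT mouse, by 0.84 ± 0.17 on average (adjusted p = 0.00163), and within slides 2, 3 and 4 by 0.23, 1.12 and 0.89. Fitted on these 2 groups alone, E2f1 lost its call (0.84 ± 0.21, adjusted p = 0.0581). Rrm1, the large subunit of ribonucleotide reductase, read 0.97, 0.38, 0.64 and 0.57 in LWT and -0.03, 0.06, 0.23 and 0.09 in LKO. It was lower in LKO without overlap, by -0.55 ± 0.17 (adjusted p = 0.0443), a call lost in 17 of the 34 fits that each left out 1 mouse (the highest adjusted p, 0.17, without LWT vehicle replicate 1). With replicate number as a block its adjusted p was 0.0578.

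In whole-body KO mice on vehicle, 4 of 29 members were called against WT, 2 higher and 2 lower, where 30.2% of all genes were called (14% higher and 16.2% lower), and the members' median was 0.04 (-0.026 over all genes). Ccnb1, cyclin B1, which with Cdk1 triggers mitosis, read -2.59, -2.33, -2.74 and -2.68 in WT and -1.66, -1.61 and -2.04 in KO, a difference of 0.81 ± 0.24 (adjusted p = 0.0106) without overlap. Plk1 read -2.36, -1.65, -2.11 and -1.92 in WT and -1.72, -0.69 and -0.86 in KO (0.92 ± 0.24, adjusted p = 0.00399), with WT replicate 2 above the lowest KO mouse. Ccnd1, cyclin D1, which couples growth signals to the start of the cycle, read 2.78, 2.70, 2.72 and 2.34 in WT and 1.45, 2.39 and 1.16 in KO. It was lower by -0.97 ± 0.37 (adjusted p = 0.0463) with a slight overlap, and 15 of the 34 fits that left out 1 mouse lost that call (the highest adjusted p, 0.22, without KO vehicle replicate 3). Cenpa was lower in KO (-0.74, -0.66 and -0.66) by -0.58 ± 0.18 (adjusted p = 0.0126), without overlap. KO replicate 2, highest in 21 of 29 members, also had the highest summed Kupffer cell and macrophage markers of its group (513.9, against 206.5 and 131.2), and the part of that in the result was not tested. Without it the same 4 genes were called (Ccnb1 0.73, Plk1 0.72, Ccnd1 -1.33 and Cenpa -0.60). Without slide 1, which holds WT vehicle replicate 1 and KO vehicle replicate 1, Ccnd1 (-0.81, adjusted p = 0.183), Cenpa (-0.46, adjusted p = 0.083) and Ccnb1 (0.76, adjusted p = 0.0537) were not, while Mki67 (1.14, adjusted p = 0.0244) and Ccna2 (0.99, adjusted p = 0.0441) were called higher, for 3 higher and 0 lower in all. Fitted on these 2 groups alone, 1 of the 4 calls was kept, Ccnb1.

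**Figure D4:**
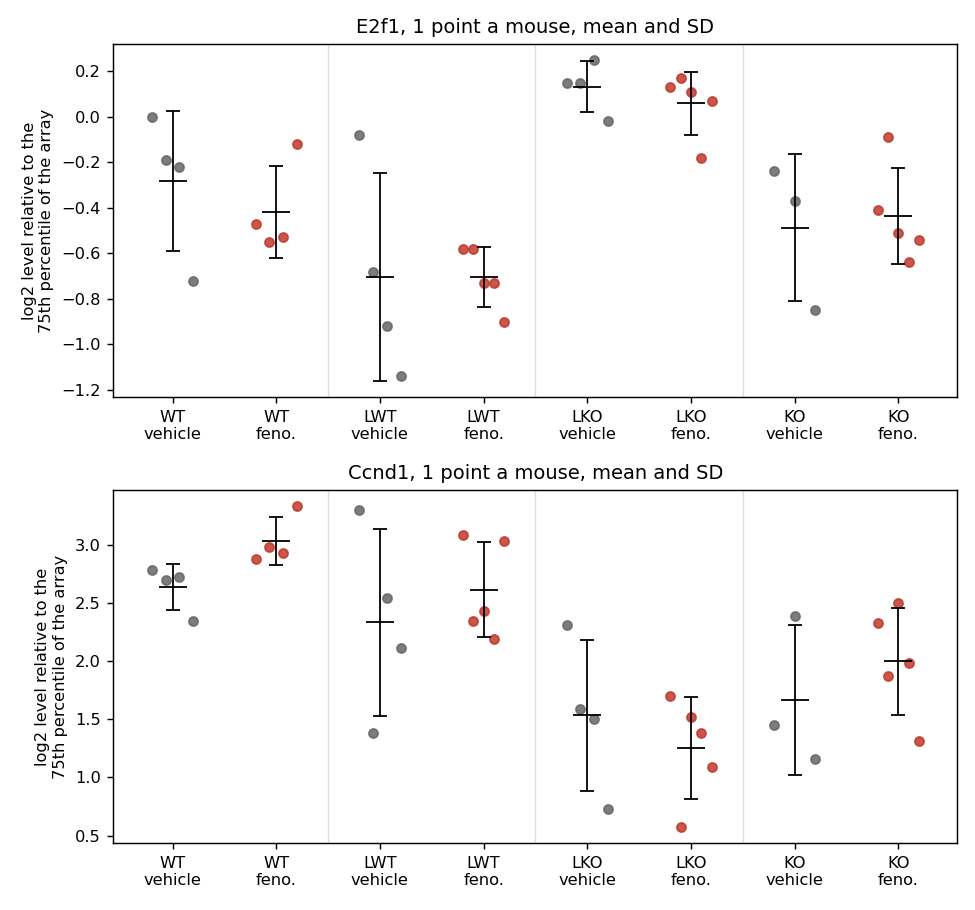
Levels of E2f1 and Ccnd1 in each mouse by group (log2 signal relative to the array's 75th percentile), with each group's mean and SD. The 9 LKO mice lie at -0.18 or above in E2f1, and treated LKO mice lie at 1.70 or below in Ccnd1, where treated LWT mice lie at 2.19 or above.

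On fenofibrate, most called members were lower in LKO than in LWT mice: 15 were lower and 3 higher, of 29, where 18.4% and 18.3% of all genes were called in those directions. The median change of the members was -0.53, and that of all genes 0.01. The mitosis members were called lower in 7 of 9 (median -0.81), replication members lower in 4 and higher in 1 of 10, and cyclins lower in 3 and higher in 1 of 6. This comparison shares the treated LWT mice with the drug effect in LWT and is not independent of it.

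The 3 higher members were Rrm2, Ccne1 and E2f1. Rrm2 was 2.92-fold higher in treated LKO than in treated LWT mice (1.55 ± 0.17, adjusted p = 1.76e-08), with the lowest LKO mouse at 2.18 and the highest LWT mouse at 1.00. Ccne1 read -1.11, -1.38, -0.99, -1.68 and -0.69 in treated LWT, and it was higher in LKO without overlap (1.25 ± 0.25, 2.38-fold, adjusted p = 0.00018). E2f1 read -0.58, -0.58, -0.73, -0.73 and -0.90 in LWT and 0.13, 0.17, 0.11, -0.18 and 0.07 in LKO (0.76 ± 0.15, adjusted p = 0.000234).

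Among the lower members, Ccnd1 differed most clearly of the cyclins. It read 3.08, 2.34, 2.43, 2.19 and 3.03 in treated LWT and 1.70, 0.57, 1.52, 1.38 and 1.09 in treated LKO, a difference of -1.36 ± 0.31 (adjusted p = 0.0007) without overlap. Ccna2 read -1.69, -2.17, -0.98, -2.15 and -1.22 in LWT and -2.48, -2.32, -2.84, -2.27 and -2.26 in LKO (-0.79 ± 0.28, adjusted p = 0.0237). Ccnb1 read -2.34, -2.30, -1.87, -2.69 and -2.18 against -3.04, -2.93, -3.28, -2.17 and -2.62, and these ranges overlapped (-0.53 ± 0.20, adjusted p = 0.035).

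Of the replication members, the helicase subunits Mcm2, Mcm4 and Mcm5 and the reductase subunit Rrm1 were lower. Mcm2 read -2.16, -1.79, -1.76, -2.43 and -1.20 in LWT and -2.88, -2.67, -3.06, -2.91 and -3.05 in LKO, without overlap (-1.05 ± 0.30, adjusted p = 0.00689). Mcm5 read -1.42, -2.02, -1.94, -1.60 and -2.02 in LKO, -1.26 ± 0.36 below LWT (adjusted p = 0.00608), with LWT replicate 4 inside that range. Rrm1 read 0.67, 0.67, 0.41, 0.41 and 1.46 in LWT and 0.26, 0.37, 0.14, 0.25 and 0.08 in LKO (-0.50 ± 0.15, adjusted p = 0.00852). Its groups did not overlap, although LWT replicate 5 stood far above its group. Mcm4 differed by -0.56 ± 0.19 (adjusted p = 0.0216), from 0.40 to 1.21 in LWT and from 0.13 to 0.54 in LKO.

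The mitosis members lower in treated LKO mice span kinases, the spindle checkpoint and the anaphase-promoting complex. Plk1 read -2.51, -2.0, -2.33, -1.91 and -1.80 in LKO (-0.77 ± 0.20, adjusted p = 0.00259), and LWT replicates 2 and 4 lay among those values. Cdc20 read -2.12, -2.15, -2.51, -1.81 and -1.48 in LKO (-1.0 ± 0.31, adjusted p = 0.0107), again with LWT replicates 2 and 4 inside that range. Mki67, the source of the proliferation antigen Ki-67, read -0.56, -1.33, 0.22, -1.09 and -0.20 in LWT and -1.81, -1.62, -1.71, -1.62 and -1.29 in LKO, where 1 LWT mouse fell inside the LKO range (-1.02 ± 0.32, adjusted p = 0.0115). Aurka, a kinase of the spindle poles, ran from -2.45 to -1.31 in LWT and from -3.03 to -2.28 in LKO (-0.81 ± 0.26, adjusted p = 0.0133). Ube2c ran from -1.64 to -0.70 and from -2.55 to -1.60 (-0.91 ± 0.26, adjusted p = 0.0068). Kif20a read -2.25, -2.28, -2.24, -2.43 and -2.20 in LWT and -3.08, -2.93, -2.79, -2.57 and -2.49 in LKO, the only mitosis member without overlap here (-0.49 ± 0.18, adjusted p = 0.0359). Bub1b, a kinase of the spindle checkpoint, was near the limit of detection, with 2 of 5 LKO and 3 of 5 LWT arrays well above background (-1.13 ± 0.44, adjusted p = 0.0443). Cdkn3, a phosphatase that acts on cyclin-dependent kinases, was well above background on 5 of 5 LWT and 2 of 5 LKO arrays (-1.50 ± 0.37, adjusted p = 0.00201). It passed the filter only through treated WT and treated LWT mice, so its difference here is not independent of the filter. Summed lymphocyte and neutrophil markers were 14.7 to 23.1 in these LWT mice and 12.5 to 13.8 in the LKO mice, and erythroid markers 30.5 to 35.6 and 47.6 to 67.8. Within the 3 slides that hold both groups, the 18 called members kept their sign in 47 of 54 differences, and 12 of the 18 did so on all 3 slides. The same arrays gave the calls, so this count is not independent of them. Of the 18, 5 lost their call in some of the fits that left out 1 treated mouse: Bub1b in 5 (adjusted p up to 0.205, without LWT replicate 3), Ccna2 in 3 (0.0855, without LWT replicate 3), Ccnb1 in 6 (0.122, without LKO replicate 3), Kif20a in 7 (0.101, without LKO replicate 1) and Mcm4 in 3 (0.0701, without LWT replicate 5). On slide 3, with 1 mouse of each group, 5 of the 7 called mitosis members had the opposite sign: Bub1b (0.91), Cdc20 (0.15), Plk1 (0.07), Aurka (0.04) and Ube2c (0.03). Ccnb1 (0.07) did so as well. On slide 5 its sign was again opposite, with LKO replicate 4 (-2.17) above LWT replicates 2 (-2.3) and 5 (-2.18).

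In treated whole-body KO mice, 7 of 29 members were called against treated WT, 4 higher and 3 lower, where 43.4% of all genes were called (21.3% higher and 22.1% lower), and the median change was -0.28 (0 over all genes). None of the 9 mitosis members was called. Rrm2 (0.78 ± 0.18, adjusted p = 0.000757) and Ccne1 (0.87 ± 0.26, adjusted p = 0.00827) were higher, as in LKO. Ccnb1 was higher in KO, at -1.27, -1.81, -1.16, -1.44 and -1.64, against -1.69, -2.12, -2.87 and -2.33 in WT (0.79 ± 0.21, adjusted p = 0.0029), with WT replicate 1 inside the KO range. Pcna read 3.33, 3.45, 3.16, 3.26 and 3.35 in KO, above all WT mice (0.28 ± 0.09, adjusted p = 0.0113). Ccnd1 read 2.33, 1.87, 2.50, 1.98 and 1.31 in KO and 2.88, 2.98, 2.93 and 3.33 in WT, lower without overlap (-1.03 ± 0.32, adjusted p = 0.0108). Mcm4 (-0.51 ± 0.20, adjusted p = 0.0439) and Mcm7 (-0.28 ± 0.11, adjusted p = 0.0457), 2 helicase subunits, were lower by small amounts, and lost their calls in 6 and 14 of the 34 fits that left out 1 mouse (the highest adjusted p, 0.203, without WT replicate 4, and 0.144, without KO replicate 3).

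Whether the knockout effect differed between the lines was tested as the LKO-minus-LWT difference less the KO-minus-WT difference, a test chosen after the values were seen. On fenofibrate 4 of 29 members were called, where 12.3% of all genes were. Ccnb1 (-1.32 ± 0.29, adjusted p = 0.00226) and Plk1 (-1.18 ± 0.29, adjusted p = 0.00609) differed with the lower values on the LKO side. Within slides, treated LKO mice lay slightly above treated LWT mice in Ccnb1 on slides 3 and 5 and in Plk1 on slide 3. Plk1 in treated KO mice read -1.14, -1.36, -0.95, -1.02 and -1.03, and in treated WT mice -1.30, -1.47, -1.89 and -1.37. E2f1 (0.78 ± 0.22, adjusted p = 0.02) and Rrm2 (0.76 ± 0.25, adjusted p = 0.0401) differed the other way. E2f1 in treated KO mice read -0.41, -0.09, -0.51, -0.64 and -0.54, and in treated WT mice -0.47, -0.55, -0.53 and -0.12, which overlap. On vehicle 2 of 29 were called, where 8.39% of all genes were: E2f1 (1.04 ± 0.25, adjusted p = 0.00813) and Rrm1 (-0.84 ± 0.25, adjusted p = 0.0294). The Rrm2 call was kept in 22 of 34 fits that left out 1 mouse, and those of Ccnb1, Plk1 and, on vehicle, E2f1 in 34 of 34.

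**Figure D5:**
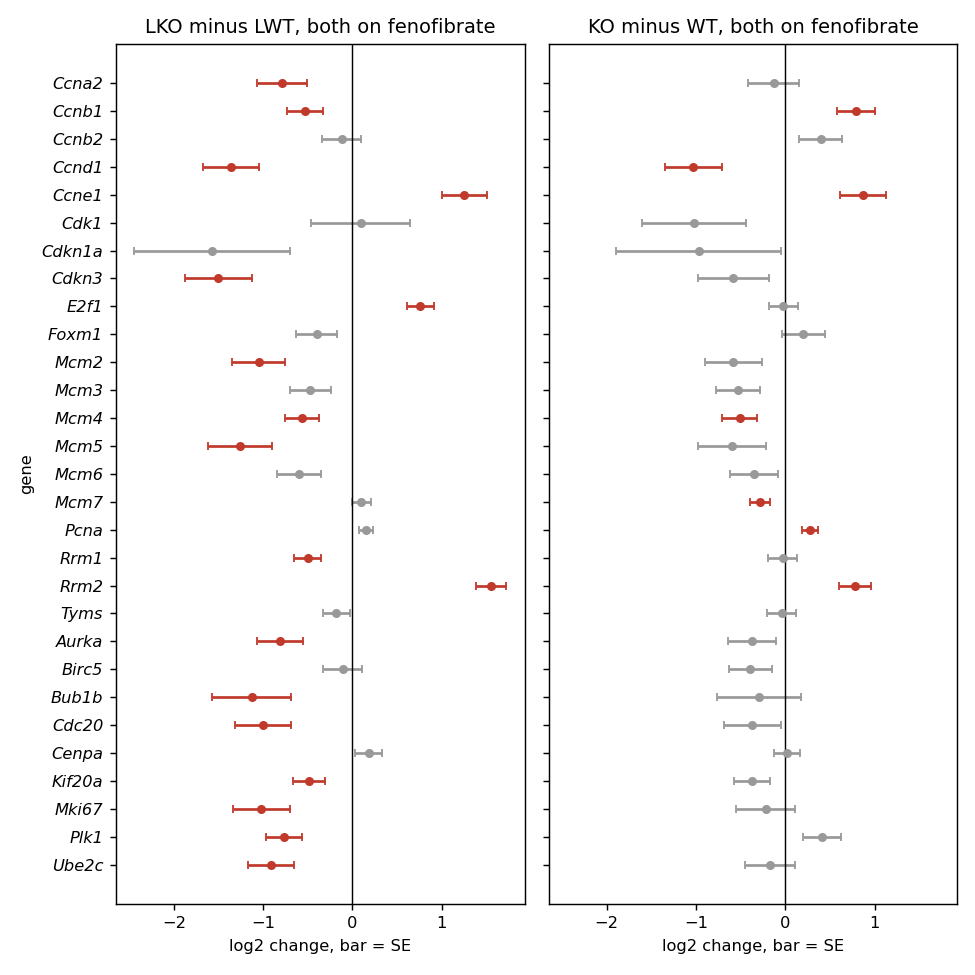
Log2 change of the 29 members in LKO minus LWT (left) and KO minus WT (right), both on fenofibrate, with bars of 1 SE. Coloured points have an adjusted p below 0.05, 18 on the left and 7 on the right, and Ccnb1 is called lower on the left and higher on the right.

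The control lines WT and LWT on vehicle gave no called member (limma, 0 of 29, with 3 at an unadjusted p below 0.05), where 0.923% of all genes were called. Without LWT vehicle replicate 1, Ccne1 (-1.42, adjusted p = 0.00346), Cenpa (-0.66, adjusted p = 0.0394) and E2f1 (-0.63, adjusted p = 0.046) were called lower in LWT, where 1.03% of all genes were. That mouse was picked as the highest of its group in most members, including these, so lower LWT means follow by construction. Across all 8 groups, limma's F test called 17 of 29 members, and 60.9% of all genes.

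Cdkn1a, which encodes the cyclin-dependent kinase inhibitor p21, spread widely within groups. Its brightest probe read -1.10, 1.88, 2.93 and 3.80 in WT on vehicle and 4.42, 4.85, 2.88 and 4.12 on fenofibrate (2.19 ± 0.97, adjusted p = 0.111). A second probe of the gene, with p adjusted over 21127 probes, passed in WT for the drug (1.66 ± 0.57, adjusted p = 0.0392) and in treated LKO against LWT (-1.43, adjusted p = 0.0304), where the brightest probe had -1.57 (adjusted p = 0.168). Birc5, which encodes survivin, a partner of Aurora B, was not called in any comparison between groups, with WT at 0.20, 0.85, 0.77 and 0.39 on vehicle and 1.01, 0.48, 0.22 and 0.99 on fenofibrate. Foxm1, a transcription factor of mitotic genes, Ccnb2, Cdk1, Mcm3, Mcm6 and Tyms, which encodes thymidylate synthase, were also tested and not called there by their brightest probes. A second probe of Mcm3 was called higher in KO against WT, as given under other observations. The members that did not pass the filter were well above background on few arrays: Aurkb and Bub1 on 1 of 34, Ccne2 on 2, and Kif11 and Top2a on 8 each. No level is given for them.

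Of other genes of the cell cycle, 84 of 99 listed were tested, and their share called was near or below that of all genes: 20.2% for the drug in WT (21.5% of all genes), 14.3% in LWT (18.1%), 36.9% in treated LKO against LWT (36.7%) and 33.3% in treated KO against WT (43.4%). In WT the drug raised 8 and lowered 9. Gadd45b, a stress gene that restrains the cycle, rose by 3.04 ± 0.55 (adjusted p = 0.000161) and Ccng2, cyclin G2, which is linked to cell cycle exit, by 1.45 ± 0.29 (adjusted p = 0.000454). Cdt1, which loads the MCM helicase at origins, fell by 0.87 (SE 0.18, adjusted p = 0.000598), and Mcm10 fell by 1.21 (SE 0.42, adjusted p = 0.0384). In LWT it raised 11 and lowered 1, among them the centrosome kinase Nek2 (1.35 ± 0.27, adjusted p = 0.000681), the spindle midzone protein gene Prc1 (1.08 ± 0.32, adjusted p = 0.019) and the helicase-complex gene Gins2 (0.73 ± 0.20, adjusted p = 0.011). In LKO and KO mice the drug changed 0 of the 84 by limma's adjusted p. Of treated LKO against LWT mice, 12 were higher and 19 lower, led by E2f8, an atypical E2F that represses S-phase genes (-3.72 ± 0.47, adjusted p = 2.07e-07), which was also lower in LKO on vehicle (-3.09 ± 0.52, adjusted p = 0.000144). Of treated KO against WT mice, 11 were higher and 17 lower, E2f8 again among the lower (-3.33 ± 0.50, adjusted p = 2.59e-06). On vehicle LKO against LWT gave 0 higher and 4 lower (4.76% of the 84), and KO against WT 6 higher and 14 lower (23.8%). Both shares were below those of all genes given above for these comparisons. Pttg1, which encodes securin, the inhibitor of sister chromatid separation, was lower in KO than in WT by -4.37 ± 0.14 on vehicle (adjusted p = 2.15e-19) and -4.52 ± 0.13 on fenofibrate (adjusted p = 1.18e-21), and in LKO against LWT its changes were -0.11 (adjusted p = 0.765) and -0.27 (adjusted p = 0.0747). Ccnd3, cyclin D3, rose with the drug by 0.48 in WT (adjusted p = 1.01e-05) and 0.54 in LWT (adjusted p = 9.26e-07), and its drug effect differed from KO by 0.62 ± 0.10 (adjusted p = 0.000116) and from LKO by 0.54 ± 0.10 (adjusted p = 0.000435). In the same 2 differences, 2 genes were higher and 1 lower for WT against KO (3.57% of the 84), and 3 higher and 2 lower for LWT against LKO (5.95%). These shares too were below those of all genes given above.

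With each group's mean removed, the 36 pairs of mitosis members had a median correlation of 0.54 across the 34 mice, the 45 pairs of replication members 0.43, the 90 pairs across these roles 0.34 and all 406 pairs 0.36. All points share the same arrays and scaling, so these are descriptions. The members with the highest median correlation to the mitosis members were Cdc20 (0.69), Mki67 (0.68), Ccna2 (0.66) and Ccnb2 (0.63). Those lowest included Tyms (0.05), Rrm1 (0.10), Ccne1 (0.11), E2f1 (0.13), Cenpa (0.24) and Rrm2 (0.26).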

How the data were processed

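Mouse liver RNA from 34 mice was hybridised to 1-colour Agilent arrays on 5 slides, 1 mouse per array. The authors deposited, per the file headers, Feature Extraction output with the processed signal intensity (background-subtracted by the scanner software) and its flags. The submitters' processing notes name Agilent Feature Extraction 10.10.1.1 and limma. The series table deposited by the authors holds log2 values of 32446 probes with column medians of 7.631 and was used as an alternative. Its normalization steps are not given in the sources used here. Probe positions are those of the scanner files (mm9).

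Control spots were left out, spots of a probe averaged, and log2 processed intensity taken relative to each array's 75th percentile. Of a gene's probes above background in all mice of some group (scanner flag), the one with the highest mean stood for the gene. limma 3.58.1 in R 4.3.3 fitted the 8 group means over 15712 genes (85 missing values), gave 9 comparisons, 3 differences of drug effects and an F test, and p-values were adjusted by Benjamini-Hochberg over all genes (threshold 0.05). A second probe's p was adjusted over 21127 probes. The fit was tested on simulated data.

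The members and gene lists were chosen with earlier results of these data known. Values are given for each array for members called in at least 1 comparison and for the brightest member of each role (levels of different probes are not compared). Genes of the other lists were named from the 6 largest called changes in a comparison, and the further values of Ccnd3 and Pttg1 were chosen after they were seen. The series text gives 36 samples, and its groups add to 34. Replicate numbers are shared between groups. Same-numbered mice deviated together in every pair for LKO against LWT on vehicle (r from 0.116 to 0.286) and KO against WT on vehicle (0.122 to 0.402), by the values alone. Of these, 3 of the 4 LKO and LWT pairs shared a slide, as did 1 of the 3 KO and WT pairs (r = 0.402). The part of the shared slide was not tested.

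The alternatives tried were normexp with quantile normalization (offset 50), the authors' table, no filter, a filter of 17 arrays, the mean of a gene's probes, slide or replicate number as a block, the compared groups alone, no slide 1, and each mouse left out. The number of arrays limits the precision.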

Additional observations from a re-analysis of the deposited data

Results flagged for a closer look

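Among 175 sets of a gene or role mean within a group of 4 or 5 mice, 13 had a mouse far from the others by Dixon's rule, which flags about 1 in 20 by chance. LWT vehicle replicate 1 was the distant mouse in 5 of them, each time the highest: Ccne1 (0.59), Kif20a (-2.31), Mcm2 (-0.36), Mcm4 (1.48) and the mean of the replication members (1.35). In treated LKO mice, replicate 3 was far below the others in Bub1b (-6.55) and Cdkn3 (-5.18), both below background there, and replicate 4 in E2f1 (-0.18). On vehicle, LKO replicate 3 was far above its group in Cdkn3 (-3.88) and Pcna (3.20). Treated KO replicate 4 stood high in Mcm2 (-1.73), treated KO replicate 3 low in the mean of the replication members (0.19), and treated LWT replicate 5 high in Rrm1 (1.46).

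Effects that differed between lines by limma's test of the difference were the drug effect on Ccne1 (-1.27) and Rrm2 (-0.97) in WT minus KO, and on Ccne1 (-1.21) and Rrm2 (-1.44) in LWT minus LKO. The knockout effect in the liver line minus that in the whole-body line differed on fenofibrate for Ccnb1 (-1.32), E2f1 (0.78), Plk1 (-1.18) and Rrm2 (0.76), and on vehicle for E2f1 (1.04) and Rrm1 (-0.84). That test was chosen after the values were seen. Its counts, 4 and 2 of 29 members, were near the shares of all genes given above, and the Rrm2 call was lost in some fits that left out 1 mouse.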

How the results depend on the processing

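Of 42 called results for members, none changed direction under any setting tried. Leaving out each mouse kept 27 of them in every fit, and 15 lost the call in at least 1. The calls that were kept numbered 42 with the 17-array filter and with the mean of a gene's probes, 39 with the replicate block, 38 with slide as a block, 36 with normexp and quantile, 36 without slide 1, 33 in the authors' table, 31 with no filter and 31 with the compared groups alone. Members called for the drug in LWT (3) came to 6 without slide 1 and 2 to 10 with a mouse left out. For LKO against LWT on vehicle (2) they came to 1 with no filter, slide as a block, the replicate block or the compared groups alone, and 1 to 3 with a mouse left out. For KO against WT on vehicle (4) they came to 1 with the compared groups alone and 3 to 5 with a mouse left out. For LWT against WT (0) they came to 1 with normexp and quantile, slide as a block or the replicate block, and 0 to 3 with a mouse left out. The drug effect in WT minus KO (2) gave 1 in the authors' table, with no filter or with the compared groups alone, 0 without slide 1, and 1 to 2 with a mouse left out. That in LWT minus LKO (2) gave 1 with normexp and quantile, in the authors' table, with no filter or with the compared groups alone, and 1 to 3 with a mouse left out. The other ranges with a mouse left out were 3 to 4 for the drug in WT, 13 to 20 for treated LKO against LWT, 5 to 9 for treated KO against WT, and 14 to 20 for the F test. With the replicate block, LKO against LWT on vehicle lost Rrm1 (adjusted p = 0.0578), and KO against WT on vehicle kept 4 called members. The replicate block also gave 5 called members for the drug in WT (1 higher and 4 lower), with Cdkn1a gained (2.19 ± 0.72, adjusted p = 0.0268), 3 in LWT (1 higher and 2 lower), with Ccne1 gained (-0.73 ± 0.23, adjusted p = 0.0266) and Cdc20 lost, and 3 for the drug in WT minus KO, with Cenpa gained (-0.66, adjusted p = 0.0361), although same-numbered mice did not deviate together in every pair there. Other gains were Plk1 in LWT minus LKO with slide as a block (0.96, adjusted p = 0.037) and without slide 1 (0.90, adjusted p = 0.031), 3 called members each, and Bub1b for the drug in WT with the compared groups alone (0.81, adjusted p = 0.0376), 5 called. Bub1b passed the filter only through treated WT mice, so that gain is not independent of the filter. Over all genes, calls went from 4746 to 2018 for KO against WT on vehicle and from 1740 to 1021 for the drug in WT minus KO with the compared groups alone. For LWT against WT they went from 145 to 84 in the authors' table and 53 with the compared groups alone, and for the drug in KO from 2 to between 0 and 36. The cause of these shifts was not tested. Signal near background limits Bub1b and Cdkn3.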

Other observations

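The 2 probes of Mcm3, which lie at overlapping positions, disagreed in KO against WT. The second probe was higher in KO on vehicle (1.57 ± 0.27, adjusted p = 5.42e-05) and on fenofibrate (1.02 ± 0.24, adjusted p = 0.000845), where the brightest gave -0.13 (adjusted p = 0.767) and -0.53 (adjusted p = 0.0859). With the mean of the gene's probes, Mcm3 was called higher in KO on vehicle (0.72 ± 0.27, adjusted p = 0.0442). In LKO against LWT both gave values below 0, -0.36 and -0.39 on vehicle and -0.42 and -0.47 on fenofibrate.

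Second probes of 2 mitosis members passed limma's test in comparisons named above: Mki67 for the drug in LWT (0.99, adjusted p = 0.0396) and in treated LKO against LWT (-0.96, adjusted p = 0.0165), and Ube2c in the latter (-1.0, adjusted p = 0.0103). The brightest probe of Mki67 was not called for the drug in LWT (0.80, adjusted p = 0.102 by limma with the 17-array filter).

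Cdkn1a was lowest in replicate 1 in 6 of the 8 groups, for example -1.10 in WT and -0.53 in KO on vehicle and 0.65 in treated LKO. In those groups replicate 1 was on slide 1 or 2. Treated KO replicate 1 (3.07), on slide 1, and treated WT replicate 1 (4.42), on slide 3, were not lowest. Without slide 1, the Cdkn1a change with the drug in WT was 1.20 ± 0.82 (adjusted p = 0.337, limma). The part of the slide in this was not tested. Cdk1 was not well above background on the 3 arrays of slide 1 (-5.22, -6.36 and -6.16) and on treated LWT replicate 1 (-4.32), and was so on the other 30.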
